A study of Mus musculus with 6 samples.

Results

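The subject was the proteasome gene family in left ventricles of mice 4 weeks after aortic banding (AB), the surgical narrowing of the aorta that places the heart under pressure overload. Members were the protein-coding genes whose symbol begins Psma, Psmb, Psmc, Psmd, Psme, Psmf or Psmg followed by a number, 50 of the 54532 genes in the count table. Of these, 49 were expressed highly enough to be tested. The study compared 3 transgenic (TG) hearts with 3 non-transgenic (NTG) hearts, 1 library each. TG animals were labelled HINT2CTG-Myh6Cre. They carried a HINT2 cassette under the ubiquitous CAG promoter and a Cre driven by the cardiomyocyte gene Myh6, and were given tamoxifen to switch the cassette on. NTG animals were labelled C57BL/6J, and whether they carried Cre or received tamoxifen is not given in the sources used here. All 6 animals underwent AB, at 8 to 10 weeks of age, and no sham-operated heart was part of the comparison. The RNA came from whole ventricular tissue, so that a change in the number of cells of a type and a change in RNA per cell cannot be told apart.

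The proteasome degrades ubiquitin-tagged proteins. Its core is a barrel of stacked rings, in which the outer alpha rings form the gate and the inner beta rings hold the catalytic sites of Psmb5, Psmb6 and Psmb7. A regulatory particle on each end binds the ubiquitin chain and threads the substrate into the barrel, its base being a ring of ATPases (Psmc genes) and the remainder non-ATPase subunits (Psmd genes). In immune cells, and in other cells exposed to interferon-gamma, the catalytic subunits are replaced by Psmb8, Psmb9 and Psmb10 to give the immunoproteasome, and the PA28 activator of Psme1 and Psme2 can cap the barrel, an arrangement known for shaping peptides for MHC class I. Basal proteasome genes are known targets of the transcription factor Nfe2l1, which recognises antioxidant response elements.

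The stretches of RefSeq promoter sequence (GRCm38.p6) below come from some of the genes whose levels are described first and some of their constitutive counterparts. They were chosen because they hold a match to a motif, and Psmb7, Psmb10 and Psme2 are not shown. Each is written 5′ to 3′ on the strand of its gene, with the matched motif in capitals, and positions are counted from the RefSeq start site. Psmb8 lies on the plus strand and is shown at chr17:34198088-34198116, with a match to TTCNNNGAA (the core of a gamma interferon activation site) beginning at position -97. Psmb9 lies on the minus strand and is shown at chr17:34187324-34187348, with CCAAT on the opposite strand, beginning at -8. Psme1 lies on the plus strand and is shown at chr14:55578493-55578522, with the core of an interferon-stimulated response element (GAAA, any 2 bases, GAAA) on the opposite strand, beginning at 10. Psmb5 is a minus-strand gene shown at chr14:54618023-54618102, with TGACNNNGC (the core of an antioxidant response element) beginning at -47. Psmb6 is a plus-strand gene shown at chr11:70525288-70525356, with the same core beginning at -9.
Psmb8: tcctccgctgTTCCCAGAAgatgcccccc
Psmb9: gcagccgctgATTGGaaagccgagc
Psme1: cgagctgtgcTTTCGCTTTCccttcccgct
Psmb5: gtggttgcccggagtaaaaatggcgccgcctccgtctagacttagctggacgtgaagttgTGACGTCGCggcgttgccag
Psmb6: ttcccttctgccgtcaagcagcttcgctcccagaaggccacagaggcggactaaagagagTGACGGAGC
The stretches of Psmb8, Psmb9 and Psme1 fall in exons of GENCODE M21 transcripts and were therefore kept short.

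Across the family these motifs were found at shares close to those of all genes, with 1 exception. Windows from 250 bases before to 50 bases after the start were at hand for 42 of the 50 members and for 27025 genes in all, and both strands were searched. The antioxidant core TGACNNNGC occurred in 6 members (14.3%) and in 14.0% of all genes. The members that held it were Psmb5, Psmb6, Psmc6, Psmd12, Psmd9 and Psme4. CCAAT occurred in 15 members (35.7%) and in 41.1% of all genes, and the activation-site core TTCNNNGAA in 3 members (7.14%, Psmb8, Psmd2 and Psmg1) and 9.55% of all genes. The interferon-stimulated core was the exception, in 5 members (11.9%) against 3.99% of all genes. Those members were Psmb3, Psmd4, Psmd9, Psme1 and Psmg4. When only the bases before the start were read, 3 kept a match, Psmb3, Psmd4 and Psmd9 (7.14%, against 3.46% of all genes). Psme1 and Psmg4 did not. Psmb10 and Psme2 held none of the 4 motifs. A match is a description of letters and was not tested.

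Library totals were 14863568 to 17581220 counts, and the summed level of the members was 3266 to 3645 CPM (counts scaled to library size) in NTG and 3666 to 3921 CPM in TG. The targeted gene, Hint2, had 12, 545 and 559 counts in NTG 1, NTG 2 and NTG 3, and 793, 828 and 859 counts in the TG libraries. The library labelled NTG 1 thus stood apart from the other NTG libraries at this gene. Over all genes its counts were nearer those of each TG library (chi-square per gene 17.8 to 28.1) than those of NTG 2 (71.2) or NTG 3 (33.1). NTG 1 was also the highest NTG library in 32 of the 49 tested members. The counts of TG 2 were likewise nearer those of NTG 1 (17.8) and NTG 3 (28.5) than those of TG 1 (32.0) or TG 3 (36.8). TG 1 and TG 3 were nearest each other (15.5). In NTG 2 the cardiomyocyte markers were lowest (summed 18325 CPM, against 24841 to 36942 CPM in the other libraries) and the fibroblast markers highest (9448 CPM, against 2001 to 5954 CPM). NTG 2 also held the lowest level of 25 of the 49 tested members, and TG 3 the highest level of 22. The part of these differences between libraries in the results was not tested.

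The highest fitted changes of the family were those of the immunoproteasome genes Psmb8 and Psmb9 and of the PA28 genes, whereas the non-ATPase subunits lay close to no difference. Of the 49 tested members, 36 had a fitted value higher in TG (73.5%, against 48.7% of all 14774 genes tested), with a median log2 fold change of 0.11 against -0.01 for all genes. The members' median was 0.15 without NTG 1 and 0.045 without NTG 2. A call required both an adjusted p below 0.05 and a log2 fold change beyond 0.5. By edgeR's quasi-likelihood test no member met this, and the share of all genes called was 0% in either direction. At an unadjusted p under 0.05, 12 members were higher (24.5%, against 8.83% of all genes) and 0 were lower (against 9.76%). In 16 members every TG library lay above every NTG library (32.7%, against 11.2% of all genes), and in 1 member every TG library lay below (2.04%, against 12.3%). DESeq2, the tool the study used, called 4 members higher, Psmb8, Psmb9, Psme1 and Psme2b, and 0 lower, where it called 1.54% of all genes higher and 2.4% lower. The likelihood-ratio test of edgeR called the same 4 genes (1.39% of all genes higher, 2.29% lower). Without NTG 1, 14 members were higher at an unadjusted p under 0.05 (13.7% of all genes) and 0 lower (13.3%), and the groups did not overlap in 23 higher members (23.4% of all genes) and 1 lower (23.6%). There edgeR called 0 members (2.67% of all genes higher, 2.85% lower) and DESeq2 called 4, namely Psmb8, Psmb9, Psme1 and Psme2 (5.92% of all genes higher, 5.79% lower). DESeq2 called no member without NTG 2, without NTG 3 or without TG 3, where it called 0.313%, 0.264% and 0.193% of all genes higher. It called 3 higher without TG 1 (0.679% of all genes) and 3 without TG 2 (1.94%). With library size as the only scaling, the median of all genes was -0.09 and that of the members 0.03. At that setting 6 members were higher and 2 lower at an unadjusted p under 0.05 (6.19% and 12.5% of all genes), and the groups did not overlap in 12 higher and 5 lower members (8.66% and 14.6% of all genes).

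**Figure D1:**
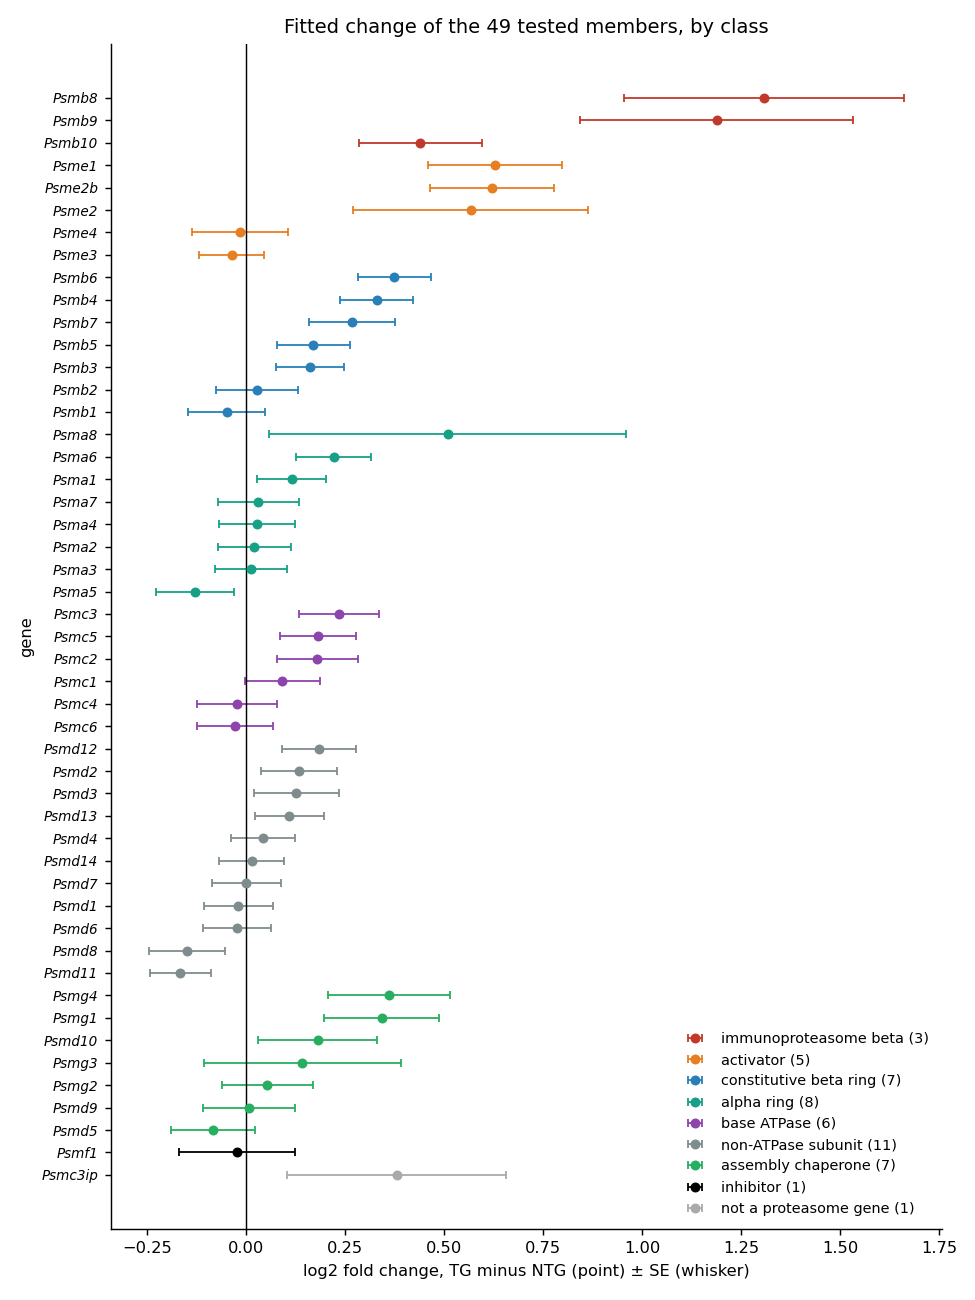
Log2 fold change of TG over NTG (horizontal axis) with its standard error for each of the 49 tested members (vertical axis), coloured by class. Psmb8 and Psmb9 lie furthest right at 1.31 and 1.19, the PA28 genes Psme1, Psme2 and Psme2b lie between 0.57 and 0.63, and the 11 non-ATPase subunits lie between -0.17 and 0.18.

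Psmb8 and Psmb9, which replace Psmb5 and Psmb6 in the immunoproteasome, were at higher levels in every TG library than in any NTG library, with a wide spread among the TG hearts. The level of Psmb8 was 15.8, 14.2 and 12.8 CPM in NTG 1 to NTG 3 and 20.8, 28.6 and 56.2 CPM in TG 1 to TG 3. TG 3 stood well above the other TG hearts, and TG 1 was the nearest to NTG. Its log2 fold change was 1.31 ± 0.35 (SE, n = 3 per group), with an adjusted p of 0.196 by edgeR and 0.00646 by DESeq2. Psmb9 was at 13.5, 10.6 and 9.01 CPM in NTG and 14.6, 22.6 and 38.0 CPM in TG, so that TG 1 exceeded NTG 1 only narrowly. The fitted log2 fold change was 1.19 ± 0.35 (SE), with an adjusted p of 0.203 by edgeR and 0.0170 by DESeq2.

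Psmb10, the counterpart of Psmb7, was at 62.4, 55.4 and 58.2 CPM in NTG and 64.0, 75.7 and 98.9 CPM in TG. The groups again did not overlap, and TG 3 was again the highest and TG 1 the lowest of the TG hearts. Its log2 fold change of 0.44 ± 0.15 (SE) did not pass, with an adjusted p of 0.217 by edgeR and 0.146 by DESeq2. Leaving out TG 3 lowered the log2 fold changes to 0.80 for Psmb8, 0.76 for Psmb9 and 0.25 for Psmb10, and DESeq2 then called none of them (adjusted p 0.0621, 0.243 and 0.555). Leaving out NTG 1 gave 1.39, 1.35 and 0.48 by edgeR. DESeq2 also lost Psmb8 and Psmb9 without NTG 2 (adjusted p 0.0647 and 0.135) and without NTG 3 (0.103 and 0.192). Psmb9 lies on chromosome 17 beside Tap1, a peptide transporter gene, which it overlaps by 212 bases on the opposite strand. Psmb8 follows on the other side of Tap1. Strand use in the counting is not given in the sources used here, so that reads in the overlap cannot be assigned with certainty.

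**Figure D2:**
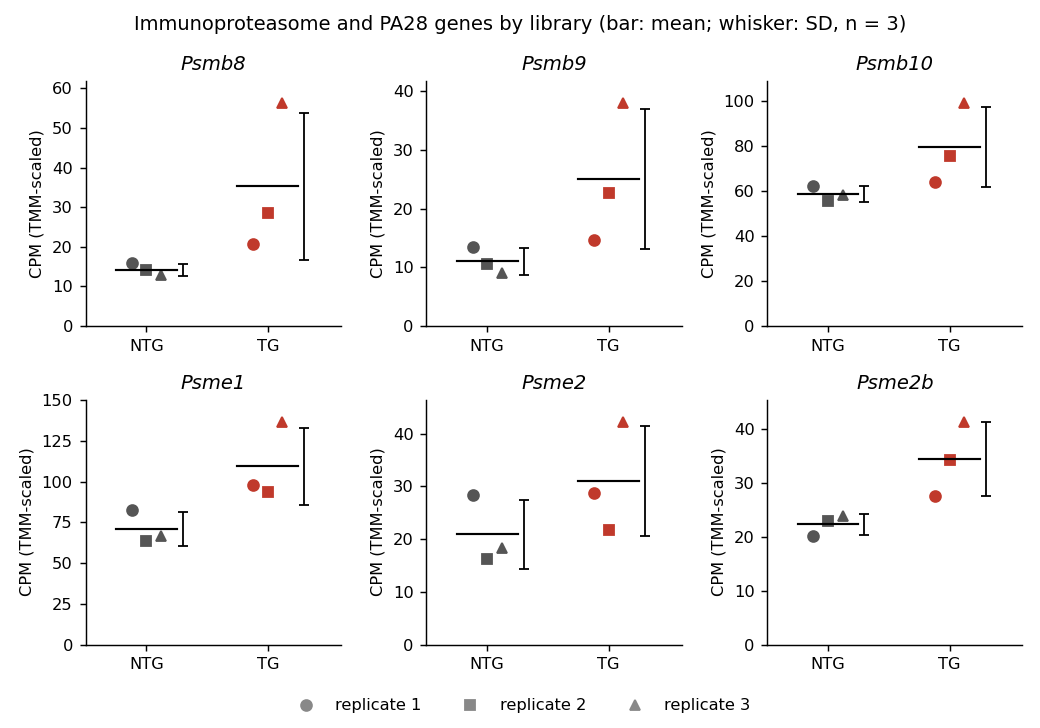
Level in each library (points, TMM-scaled CPM from 0) of 3 immunoproteasome genes and 3 PA28 genes, with the mean (bar) and SD (whisker) of each group of 3. The TG points lie above all NTG points for every gene but Psme2, and TG 3 is the highest library in all 6 panels.

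Among the activators, DESeq2 called the PA28 genes Psme1 and Psme2b higher in TG and did not call Psme2, Psme3 or Psme4, the last 2 encoding nuclear activators. Psme1, the PA28 alpha subunit, was at 82.6, 63.5 and 66.6 CPM in NTG and 97.8, 94.0 and 136.8 CPM in TG. NTG 1 was the nearest to the TG libraries, without overlap. The log2 fold change was 0.63 ± 0.17 (SE), with an adjusted p of 0.196 by edgeR and 0.0339 by DESeq2. Without NTG 1 it was 0.75, with an adjusted p of 0.0501 by edgeR and 0.00320 by DESeq2. Psme2, the PA28 beta subunit, was at 28.4, 16.1 and 18.3 CPM in NTG and 28.8, 21.7 and 42.2 CPM in TG. Here NTG 1 was above TG 2, so the groups overlapped, and the log2 fold change of 0.57 ± 0.30 (SE) had an adjusted p of 0.343 by edgeR and 0.273 by DESeq2.

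Psme2b, listed as a separate protein-coding gene, is a near copy of Psme2. Over 794 aligned bases of their transcripts 99.4% were identical, so reads of the pair could be split uncertainly between them. By position Psme2b also overlaps the protein-coding genes 9930111J21Rik1 and Gm12185, and reads in these overlaps cannot be assigned with certainty either. Psme2b was at 20.2, 23.0 and 23.9 CPM in NTG and 27.6, 34.2 and 41.4 CPM in TG, without overlap, and its log2 fold change was 0.62 ± 0.16 (SE), with an adjusted p of 0.196 by edgeR and 0.0313 by DESeq2. Summed, the pair had 712, 738 and 730 counts in NTG and 783, 985 and 1356 counts in TG. That gave 43.3 ± 4.80 CPM in NTG and 65.3 ± 15.8 CPM in TG (SD, n = 3), a ratio of 1.51. Without TG 3 the log2 fold changes were 0.43 for Psme1, 0.27 for Psme2 and 0.47 for Psme2b. By DESeq2, Psme1 was also lost without TG 1 (adjusted p 0.112), and Psme2b without NTG 1 (0.0522) and without TG 2 (0.0873), while Psme2 was gained without NTG 1 (0.0285).

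Psme3 was at 72.1, 72.5 and 75.7 CPM in NTG and 73.5, 68.0 and 73.3 CPM in TG. Psme4 was at 287.5, 227.0 and 271.9 CPM in NTG and 250.8, 275.7 and 251.1 CPM in TG. For both the groups overlapped, with log2 fold changes of -0.04 ± 0.08 and -0.02 ± 0.12 (SE). Psmf1, which encodes the inhibitor PI31, was at 18.5 to 20.2 CPM in NTG and 15.7 to 22.4 CPM in TG, with a log2 fold change of -0.02 ± 0.15 (SE).

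The ratio of each immunoproteasome gene to the subunit it replaces, taken per kilobase within a library, carries no effect of library scaling. Psmb8 to Psmb5 was 0.0658, 0.0680 and 0.0567 in NTG and 0.0810, 0.120 and 0.214 in TG. Every TG ratio was thus above every NTG ratio, and the mean log2 ratio was higher in TG by 1.01. Psmb9 to Psmb6 was 0.0817, 0.0747 and 0.0625 in NTG and 0.0734, 0.119 and 0.194 in TG, TG 1 lying below 2 of the NTG libraries. Its mean log2 ratio was higher in TG by 0.72. Psmb10 to Psmb7 was 1.61, 1.74 and 1.61 in NTG and 1.58, 1.86 and 2.11 in TG, with a difference of 0.15 and overlapping groups. None of the 3 pairs passed the two-sided exact permutation test, with p = 0.1, 0.3 and 0.4 and adjusted values of 0.3, 0.4 and 0.4 over the 3 pairs, where 3 against 3 libraries cannot go below 0.1. Without TG 3 the differences were 0.64, 0.36 and 0.05, without TG 1 they were 1.34, 1.07 and 0.26, and without NTG 1 they were 1.04, 0.80 and 0.13.

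**Figure D3:**
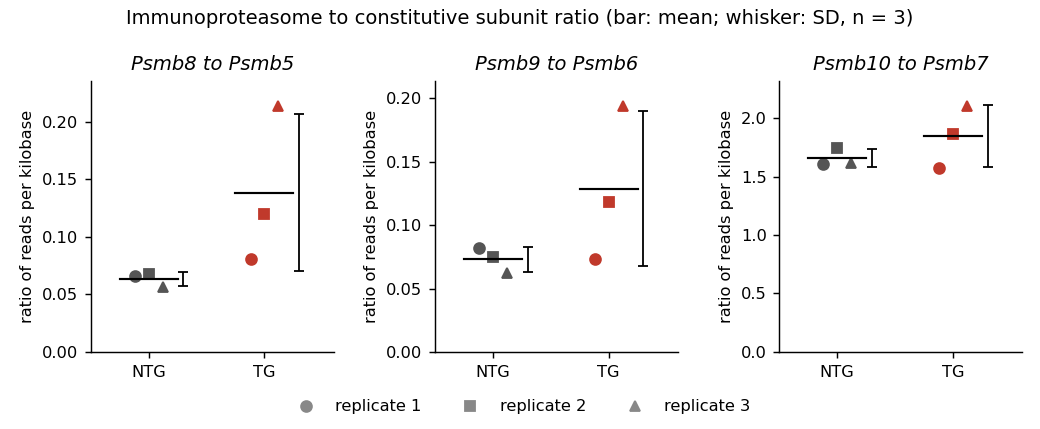
Ratio of reads per kilobase of each immunoproteasome gene to the constitutive subunit it replaces (vertical axis, from 0) in each library, with the mean (bar) and SD (whisker) of each group of 3. For Psmb8 to Psmb5 the TG libraries span 0.0810 to 0.214 and the NTG libraries 0.0567 to 0.0680.

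No gene of the constitutive beta ring was called by edgeR or DESeq2. Of its 7 genes, 6 had a higher fitted value and 3 reached an unadjusted p under 0.05, all higher, with a class median of 0.17 (0.086 with library size as the only scaling). The level of Psmb6, a catalytic subunit, was 84.5, 72.6 and 73.8 CPM in NTG and 101.9, 97.4 and 99.98 CPM in TG. The TG libraries lay close together and above all NTG libraries. The fitted change was 0.37 ± 0.09 (SE), below the 0.5 required for a call, with an adjusted p of 0.196 by edgeR and 0.0364 by DESeq2. Without NTG 1 it was 0.44 with an adjusted p of 0.0370 by edgeR. Psmb4, a structural subunit, showed the same arrangement, with 117.5, 102.3 and 104.5 CPM in NTG and 137.0, 135.8 and 134.6 CPM in TG. Here the log2 fold change was 0.33 ± 0.09 (SE), with an adjusted p of 0.196 by edgeR and 0.0518 by DESeq2. Without NTG 1 it was 0.39, with an adjusted p of 0.0510 by edgeR and 0.00281 by DESeq2.

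Psmb7, the trypsin-like catalytic subunit, was at 77.7, 63.8 and 72.4 CPM in NTG and 81.6, 81.5 and 94.2 CPM in TG, a log2 fold change of 0.27 ± 0.11 (SE) with an adjusted p of 0.246 by edgeR. The chymotrypsin-like subunit Psmb5 was at 78.9, 68.4 and 74.0 CPM in NTG and 84.4, 78.2 and 86.2 CPM in TG. NTG 1 was above TG 2, and the log2 fold change was 0.17 ± 0.09 (SE). The structural subunits Psmb3, Psmb2 and Psmb1 had log2 fold changes of 0.16, 0.03 and -0.05, and only Psmb3 had groups that did not overlap. None of these 3 reached an unadjusted p under 0.05.

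The alpha ring, which gates the barrel, had a class median of 0.03. Psma6 was the 1 of its 8 genes with an unadjusted p under 0.05, at 94.2, 83.1 and 92.1 CPM in NTG and 99.7, 101.9 and 112.3 CPM in TG. The groups did not overlap, and the log2 fold change was 0.22 ± 0.10 (SE) with an adjusted p of 0.264 by edgeR. Psma5 was the only member of the ring with a lower fitted value, at 53.3, 47.1 and 51.3 CPM in NTG and 42.3, 46.6 and 49.8 CPM in TG (log2 fold change -0.13 ± 0.10, SE). Psma1 was at 0.11 and Psma3 at 0.01 on the same scale. Psma8, a subunit known from the testis, was near the limit of detection, with 0.614 to 0.925 CPM in NTG and 0.555 to 1.58 CPM in TG. Its fitted value of 0.51 had a standard error of 0.45 and lay between 0.22 without TG 1 and 0.86 without TG 3.

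The ATPases of the base had a class median of 0.14, with 4 of 6 genes fitted higher. Psmc3 was at 158.0, 138.2 and 155.7 CPM in NTG and 180.0, 164.9 and 186.7 CPM in TG. All TG libraries were above NTG, and the log2 fold change was 0.23 ± 0.10 (SE), with an unadjusted p of 0.0487 and an adjusted p of 0.265 by edgeR. Psmc5 also had groups that did not overlap, at 69.9 to 84.0 CPM in NTG and 87.1 to 89.3 CPM in TG. Its log2 fold change was 0.18 ± 0.10 (SE). Psmc2 had a like fitted value, 0.18 ± 0.10 (SE), but NTG 1 exceeded TG 2. Psmc4 was at -0.02 with overlapping groups.

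The 11 non-ATPase subunits had a class median of 0.01, none had an unadjusted p under 0.05, and 6 were fitted higher and 5 lower. Psmd11, a scaffold subunit of the lid, was at 89.8, 90.7 and 90.1 CPM in NTG and 81.1, 80.7 and 79.3 CPM in TG. It was the one member whose TG libraries all lay below the NTG libraries, and both groups were tight. The log2 fold change was -0.17 ± 0.08 (SE), with an unadjusted p of 0.0634 and an adjusted p of 0.293 by edgeR. With each library left out in turn it lay between -0.18 and -0.15, and it was not called. Psmd12, another lid scaffold, was at 85.3, 72.0 and 77.9 CPM in NTG and 92.4, 86.1 and 88.5 CPM in TG, without overlap (log2 fold change 0.18 ± 0.09, SE). Psmd8 was at 118.8, 117.0 and 132.9 CPM in NTG and 117.5, 110.4 and 104.5 CPM in TG (log2 fold change -0.15 ± 0.10, SE). Psmd7, a partner of the deubiquitinating subunit, had a log2 fold change of 0.00 ± 0.09 (SE).

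Among the 7 assembly chaperones the class median was 0.14. Psmg1, which pairs with Psmg2 in building the alpha ring, was at 9.61, 8.27 and 9.65 CPM in NTG and 13.04, 10.8 and 11.0 CPM in TG. Psmg4, which pairs with Psmg3, was at 7.02, 8.64 and 9.36 CPM in NTG and 10.6, 10.6 and 11.0 CPM in TG. In both genes every TG library was above every NTG library. Their log2 fold changes were 0.34 ± 0.15 and 0.36 ± 0.15 (SE), each with an unadjusted p of 0.0462 and an adjusted p of 0.260 by edgeR. The partners Psmg2 and Psmg3 had fitted values of 0.05 ± 0.11 and 0.14 ± 0.25 (SE). The chaperones of the ATPase ring, Psmd5, Psmd9 and Psmd10, were at -0.08, 0.01 and 0.18, all with overlapping groups.

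The name rule also took in genes outside the ventricular proteasome. Psmc3ip, a meiotic recombination factor named for its binding to Psmc3, was at 1.38 to 1.91 CPM in NTG and 1.87 to 2.34 CPM in TG (log2 fold change 0.38 ± 0.28, SE). Psmb11, the thymus-specific catalytic subunit, had 1 count in TG 1 and 0 in the other libraries and was not tested.

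Per kilobase of gene length, Psmb5 was the most abundant member at 82.1 ± 5.84 CPM per kilobase in NTG and 92.3 ± 4.67 in TG (SD, n = 3), followed by Psma6 at 72.8 ± 4.77 and 84.8 ± 5.47. The next members, Psmc1, Psmc3, Psmb4 and Psmc5, lay at 55.4 to 61.0 CPM per kilobase in NTG, and in that group neighbours in the order differed by less than 1 SD. Within the 7 alpha genes other than Psma8 the NTG levels spanned a 4.87-fold range, from Psma3 to Psma6, and within the constitutive beta ring a 3.94-fold range, from Psmb7 to Psmb5. The immunoproteasome genes were unequal, with 34.4 ± 2.06 CPM per kilobase in NTG for Psmb10 against 5.21 ± 0.558 for Psmb8 and 3.02 ± 0.622 for Psmb9. Psmb10 was above its counterpart Psmb7 (20.8 ± 2.06) already in NTG, whereas Psmb8 and Psmb9 were far below theirs. Chaperones were low, from 0.940 (Psmg3) to 18.6 (Psmg2) CPM per kilobase in NTG. Gene length here is the length in the deposited table, which for 47 of the 50 members lay within 1% of the union of all GENCODE M21 exons of the gene, so that per-kilobase levels are approximate.

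**Figure D4:**
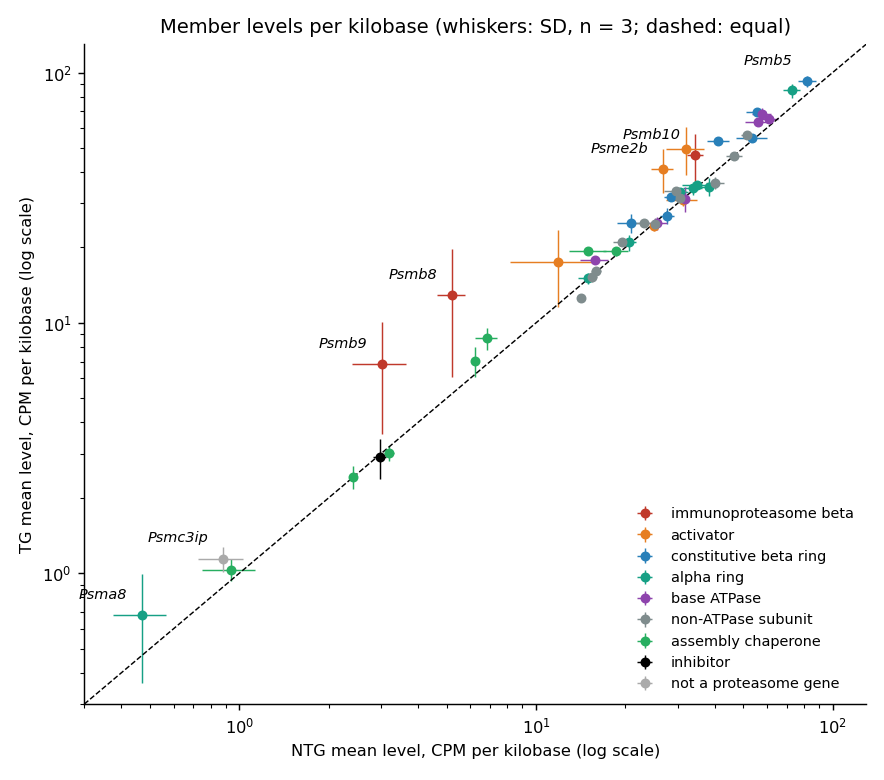
Mean level of each of the 49 tested members in NTG (horizontal axis) and TG (vertical axis), both in CPM per kilobase on log scales, with the SD of 3 libraries as whiskers and equality as a dashed line. Most members lie along the line, and Psmb8 and Psmb9 lie above it, at 5.21 and 3.02 in NTG against 12.9 and 6.85 in TG.

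Averaged by class within each library, the immunoproteasome genes varied most. Relative to each gene's mean over the 6 libraries, their mean log2 level was -0.26, -0.48 and -0.58 in NTG and -0.08, 0.35 and 1.05 in TG. The constitutive beta ring was at 0.02, -0.20 and -0.10 in NTG and 0.09, 0.04 and 0.14 in TG. The non-ATPase subunits were at 0.00, -0.07 and 0.03 in NTG and 0.00, 0.02 and 0.01 in TG. TG 3 was therefore far from TG 1 in the immunoproteasome class and close to it in the regulatory particle. When Psmb8, Psmb9, Psmb10, Psme1, Psme2 and Psme2b were set aside, a grouping made after their values were seen, the median log2 fold change of the other 42 tested members was 0.05. The coefficient of variation among the TG libraries was over 20% for 7 members, these 6 and Psma8, with a median of 5.57% over all 49. Among the NTG libraries it was over 20% for 4 members, Psma8, Psmb9, Psme2 and Psmg3, with a median of 7.17%.

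**Figure D5:**
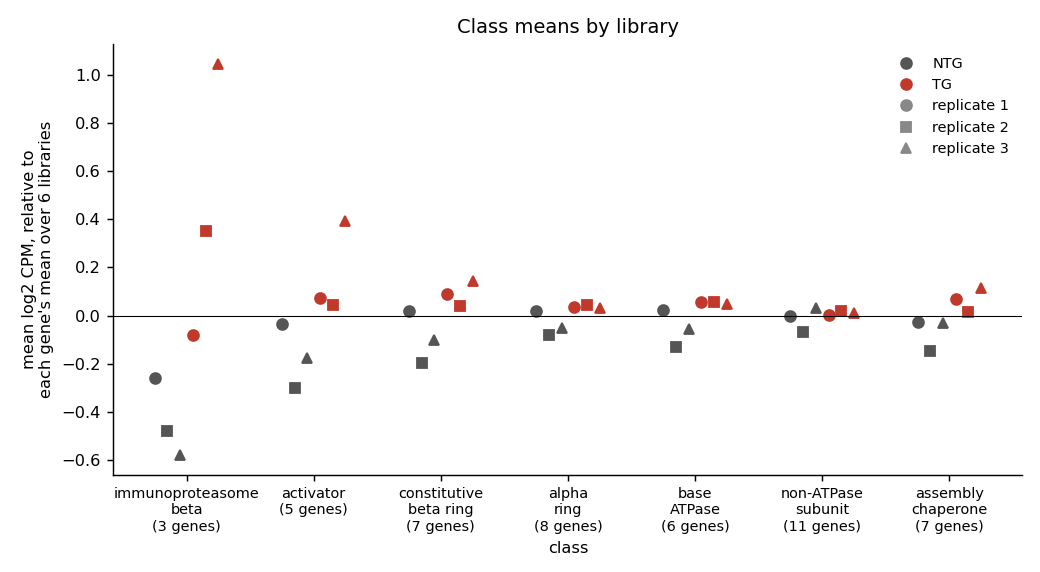
Mean log2 CPM of the genes of each class in each library, relative to each gene's mean over the 6 libraries (vertical axis), with NTG grey and TG red and the replicate number as the symbol. The immunoproteasome genes span -0.58 to 1.05, and the non-ATPase subunits span -0.07 to 0.03.

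Genes of the interferon-gamma and MHC class I pathway had a like order of libraries. Of 16 such genes, 13 were fitted higher, with a median log2 fold change of 0.64, and 7 were higher and 1 lower at an unadjusted p under 0.05 (8.83% and 9.76% of all genes). The groups did not overlap in 6 higher and 1 lower (11.2% and 12.3% of all genes). DESeq2 called 4 of them, all higher, among them Nlrc5 and Irf1 (1.54% of all genes higher, 2.4% lower). Nlrc5, the transactivator of MHC class I genes, was at 15.7, 11.9 and 9.59 CPM in NTG and 19.0, 29.9 and 57.8 CPM in TG. Its log2 fold change was 1.53 ± 0.41 (SE), with an adjusted p of 0.196 by edgeR and 0.00410 by DESeq2. Without NTG 1 it was 1.73, with an adjusted p of 0.135 by edgeR and 0.0364 by DESeq2, and without TG 3 it was 0.98. Tap2, a peptide transporter subunit, was at 27.6, 25.3 and 26.3 CPM in NTG and 31.1, 38.6 and 59.4 CPM in TG. Irf1, an interferon regulatory factor, was at 39.1, 19.7 and 21.7 CPM in NTG and 43.7, 42.1 and 71.4 CPM in TG. Its log2 fold change was 0.97, with an adjusted p of 0.214 by edgeR and 0.0378 by DESeq2. Without NTG 1 it was 1.34, called by edgeR (adjusted p 0.0439) and DESeq2 (2.22e-05), and without TG 3 it was 0.68. In all 3 genes TG 3 was the highest library. DESeq2 lost the call of Nlrc5 without NTG 2 (adjusted p 0.353), without NTG 3 (0.0933) and without TG 3 (0.103), and that of Irf1 without NTG 2 (0.297), NTG 3 (0.281), TG 1 (0.121) or TG 3 (0.369). DESeq2 gained Tap2 without NTG 1 (0.0495) and without TG 1 (0.0203).

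No leukocyte marker was called by edgeR or DESeq2 with all 6 libraries. Of 13 listed markers 11 were tested, of which 3 were fitted higher and 8 lower in TG, with a median log2 fold change of -0.56. Their summed level was 767, 1464 and 795 CPM in NTG and 556, 684 and 809 CPM in TG, so that NTG 2 alone lay above all TG libraries. The T cell marker Cd8a was at 0.954, 0.424 and 0.231 CPM in NTG and 0.504, 2.33 and 2.53 CPM in TG (log2 fold change 1.78 ± 0.69, SE, adjusted p 0.231 by edgeR). The myeloid markers Cd68 and Csf1r had log2 fold changes of -0.76 and -0.59, which were -0.44 and -0.32 without NTG 2. Without NTG 1 they were -0.93 and -0.77, and there DESeq2 called Cd68 (adjusted p 0.0205), Csf1r (0.00301) and Cd8a (0.0296), and edgeR called Csf1r (0.0475). The T cell marker Cd3e was below the filter, at 0.159 to 0.231 CPM in NTG and 0.144, 0.795 and 1.42 CPM in TG, and no listed marker was at 0 in every library of a group. The part of T cells or other leukocytes in the immunoproteasome result was not tested.

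The other genes of the pathway, from lists of named regulators and partners, gave few differences. Of 6 subunits and assembly factors outside the Psm names all were fitted higher, with a median of 0.12. Sem1, a small lid subunit, was at 66.2, 62.0 and 59.7 CPM in NTG and 89.6, 85.5 and 80.4 CPM in TG. All TG libraries were above NTG, and its log2 fold change was 0.44 ± 0.09 (SE), with an adjusted p of 0.196 by edgeR and 0.00744 by DESeq2, below the 0.5 required for a call. Pomp, which matures the core, and Adrm1, a ubiquitin receptor, were at 0.16 and 0.14 with overlapping groups. Among 11 bound receptors, ligases and deubiquitinases the median was 0.04, and Zfand5 and Ubqln1 were at 0.24 and 0.13.

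None of the known regulators was called. Of 8 transcription factors and processing enzymes 3 were fitted higher and 5 lower, with a median of -0.12. Nfe2l1 was at 567, 563 and 636 CPM in NTG and 605, 637 and 587 CPM in TG, a log2 fold change of 0.05 ± 0.12 (SE). Nfe2l2 was at -0.17 ± 0.11, Nfyc at 0.24 ± 0.12 and Stat3 at -0.31 ± 0.12 (SE), the last with an adjusted p of 0.227 by edgeR and groups that did not overlap. Of 6 ubiquitin and ubiquitin-activating genes 3 were fitted higher and 3 lower, with a median of -0.03. Uba6 was at -0.28 and Rps27a at -0.15.

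With all 6 libraries neither tool called a marker of cardiomyocytes or endothelial cells. Cardiomyocyte markers were fitted higher in 7 of 7 genes (median 0.53, Myl2 0.59, Tnni3 0.61, Pln 0.53) and fibroblast markers lower in 7 of 7 (median -0.65, Dcn -0.65, Postn -2.54, Col3a1 -1.45). Endothelial markers had a median of -0.04 (Kdr 0.37, Vwf -0.81, Emcn -0.19) and smooth muscle and pericyte markers a median of 0.04 (Acta2 0.42, Myh11 0.70, Pdgfrb -0.23). Erythroid markers were lower in 3 of 3 (Hba-a1 -1.02, Hbb-bs -1.20, Alas2 -1.55). These are log2 fold changes. Of all markers on these 5 lists edgeR called none, as it called no gene at all, and DESeq2 called 7 (1.54% of all genes higher, 2.4% lower). These were Dcn (adjusted p 0.00934), Col1a1 (0.0179), Postn (0.0285) and the 3 erythroid genes Hba-a1 (0.000451), Hbb-bs (6.14e-07) and Alas2 (0.000291), all lower, and Myh11 (0.0168), higher. The 3 erythroid calls held with any library left out, whereas Dcn and Postn were lost without NTG 2, NTG 3, TG 1 or TG 3 (adjusted p 0.112 to 0.339) and Myh11 without TG 1 (0.216) or TG 3 (0.104). For Col1a1 the call was not examined with a library left out. Without NTG 2 the fitted values were -0.48 for Vwf, -0.94 for Col3a1 and 0.33 for Pln, and without NTG 1 they were -1.08, -1.74 and 0.86. Without NTG 1 these 3 genes were called by edgeR (adjusted p 0.0191, 0.0466 and 0.0434) and by DESeq2 (6.55e-07, 3.84e-06 and 0.000254), DESeq2 also called Myl2 (0.000104) and Tnni3 (0.00123), and edgeR also called the 3 erythroid genes (0.00896 to 0.0149). DESeq2 further called Col3a1 without NTG 3 (0.0242) and Myl2 without TG 2 (0.0273), with Tnni3 (0.0239). Their part in the differences of the proteasome genes was not tested.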

How the data were processed

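RNA-seq libraries were made from poly(A)-selected left ventricular RNA of 3 TG and 3 NTG mice. The deposited table holds raw counts per gene, which the authors made with HISAT2 alignment and featureCounts. The submitters' processing notes name a human build, but 48 of the 50 member positions are identical to GENCODE M21 (GRCm38). Library totals of 14863568 to 17581220 counts set the precision, and no count was normalised beforehand. Counts were fitted across 14774 genes with edgeR 4.0.16 (R 4.3.3; TMM scaling, filterByExpr, robust quasi-likelihood test, Benjamini-Hochberg adjustment), and CPM are TMM-scaled. Calls were made at adjusted p < 0.05 with a log2 fold change beyond 0.5. DESeq2 1.42.0, limma-voom (3.58.1), the likelihood-ratio test, other scalings and filters, a gene length offset, a replicate block and leaving out each library were alternatives. Ratios were tested by exact permutation.

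On simulated counts for 14551 genes of this comparison, the edgeR test recovered 71.6% of 197 changed genes with 5 false calls, and DESeq2 78.7% with 31. In the measured counts edgeR called 0 genes. Whether the shares recovered hold for the measured libraries, or for fold changes of the size seen in most members, was not tested. Whether the hearts came from separate litters or days is not given, so p-values measure only the spread between these samples. No pair of libraries agreed within sampling noise. Whether replicate numbers pair the samples is not settled by the correlations of deviations (0.11, 0.20 and -0.26). Genes named were fixed by rule: the immunoproteasome genes and their counterparts, activators, inhibitor and chaperones, the smallest and largest p in each other class, members called by either tool, untested or non-proteasome members, and of the other lists the 3 smallest p with Nfe2l1, Nfe2l2, Pomp and Hint2. Others were named after their values were seen. A few genes that the rule takes in are not reported here. The members and lists were chosen with earlier results of these data known. Promoters came from RefSeq.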

Additional observations from a re-analysis of the deposited data

How the results depend on the processing

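The log2 fold changes of Psmb8, Psmb9, Psmb10, Psme1, Psme2, Psme2b and of the members at an unadjusted p under 0.05 stayed above 0 under every alternative run, while the calls depended on the test and on single libraries. With no low-count filter edgeR called 116 genes higher and 116 lower, 2 of them members (Psme1 and Psme2b). DESeq2 called 228 higher and 355 lower with 4 members, the likelihood-ratio test 206 and 339 with 4 members (7 members higher at an unadjusted p under 0.05), and limma-voom 1 gene higher. The replicate block called 84 higher and 147 lower, and with the length offset 115 and 138, with 0 members in either. Since it is not settled whether the numbers pair the samples, the blocked counts are given for completeness. With library size alone 6 members were higher and 2 lower at an unadjusted p under 0.05 (6.19% and 12.5% of all genes), and the groups of 5 did not overlap downwards (14.6%). The median was then 0.032 over all members, -0.051 in the alpha ring, 0.086 in the constitutive beta ring, 0.053 in the ATPases, -0.073 in the non-ATPase subunits and 0.064 in the chaperones. Read before the start only, 3 members held the interferon-stimulated core (7.14%, against 3.46% of all genes).

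Leaving out each library in turn, by edgeR and DESeq2, gave 0 to 896 genes called higher and 0 to 877 lower, 0 to 4 members called, 5 to 14 members higher at an unadjusted p under 0.05 (4.71% to 13.7% of all genes) 16 to 23 members whose groups did not overlap upwards (2031 to 3455 of all 14774 genes) and 1 to 4 members whose groups did not overlap downwards (2181 to 3486 of all 14774 genes). The median of all members lay between 0.045 and 0.16. The lowest and highest class medians were 0.76 and 1.46 for the immunoproteasome, 0.27 and 0.63 for the activators, 0.0025 and 0.10 for the alpha ring, 0.068 and 0.19 for the ATPases, -0.0029 and 0.059 for the non-ATPase subunits, and -0.00029 and 0.20 for the chaperones. The cause of these shifts was not tested.

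Members near no difference changed sign. Psmd7 was at 0.0045 with RLE, 0.0024 with upper quartile scaling, 0.0038 among protein-coding genes, 0.0046 by DESeq2, 0.0012 by limma-voom, 0.0013 with the block and -0.035 to 0.059 with a library left out. With library size alone Psmg2 was at -0.029, Psmd9 at -0.073, Psma3 at -0.071, Psmb2 at -0.054 and Nfe2l1 at -0.032. With the length offset Psme4 was at 0.043, Psmf1 at 0.013, Psmg2 at -0.052 and Psmb2 at -0.061, and with the replicate block added at 0.051, 0.0010, -0.050 and -0.055. Psmd9 was at -0.00048 with no low-count filter. With a library left out the ranges were -0.037 to 0.069 for Psma3, -0.11 to 0.0029 for Psmb1, -0.068 to 0.095 for Psmb2, -0.12 to 0.052 for Psmc4, -0.072 to 0.077 for Psmd9, -0.058 to 0.0092 for Psme3, -0.11 to 0.060 for Psme4, -0.17 to 0.090 for Psmf1, -0.015 to 0.13 for Psmg2, -0.00029 to 0.30 for Psmg3 and -0.29 to 0.10 for Rps27a. Among genes that kept their sign, the range was 0.077 to 0.29 for Psmd10, 0.053 to 0.21 for Adrm1, -0.13 to -0.014 for Psmd5, -0.20 to -0.084 for Psmd8, 0.11 to 0.24 for Psmc5, 0.076 to 0.17 for Ubqln1, 0.017 to 0.12 for Nfe2l1, 0.17 to 0.36 for Nfyc, 0.087 to 0.17 for Psma1, 0.10 to 0.23 for Pomp, 0.11 to 0.27 for Psmc2, -0.19 to -0.067 for Psma5, -0.25 to -0.076 for Nfe2l2, 0.40 to 0.89 for Tap2 and -0.36 to -0.089 for Pdgfrb.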
